A study of Mus musculus with 10 samples.

Results

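The nuclear genes for subunits of the 5 oxidative phosphorylation complexes were followed in jejunal crypts of WT mice and of mice that lack Arid3a in the intestinal epithelium. Members were taken by symbol: protein-coding genes whose symbols begin with Ndufa, Ndufb, Ndufc, Ndufs, Ndufv, Uqcr, Cox4 to Cox8 or Atp5, together with Sdha to Sdhd, and without the Ndufaf assembly factors. Of 54838 genes in the files, 86 met this rule, with 38 in complex I, 4 in complex II, 8 in complex III, 18 in complex IV and 18 in complex V. A filter on low counts left 14719 genes for testing, among them 80 members. The 6 members that did not pass it, Ndufa4l2, Cox4i2, Cox6a2, Cox7b2, Cox8b and Cox8c, had at most 7 counts in any library.

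The conditional knockout (cKO) carried floxed Arid3a alleles and VillinCre-ERT2, a tamoxifen-activated recombinase driven by the Villin promoter, which directs the deletion to epithelial cells and leaves the gene in stromal cells. Both genotypes received tamoxifen on 3 consecutive days and crypts were collected 1 month after it began, from 5 WT and 5 cKO animals, each giving 1 library, numbered here as in the labels. The alleles carried by the WT animals and the age of the mice were not given in the sources used here. The animal identifiers of the WT and cKO mice carry different prefixes, which the labels do not explain, so genotype and whatever the prefix stands for cannot be told apart.

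Oxidative phosphorylation passes electrons from NADH (complex I) and succinate (complex II) through ubiquinone, complex III and cytochrome c to complex IV, which reduces oxygen. The proton gradient built by complexes I, III and IV drives ATP synthesis by complex V. Complex II is encoded wholly in the nucleus, whereas the other complexes also contain subunits made from mitochondrial DNA. In the intestine, absorptive enterocytes are rich in mitochondria, and the stem and progenitor cells of the crypt are known to adjust mitochondrial activity as they differentiate.

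The libraries held 27050455 to 28152743 expected counts in WT and 28314069 to 31053622 in cKO crypts. Arid3a itself was at 1.91 to 2.75 normalized CPM (library-scaled counts) in WT and at 0.303 to 1.17 in cKO libraries, a log2 fold change of -1.84 (SE 0.32, edgeR adjusted p = 0.00204), with no overlap between genotypes. Enterocyte markers were higher in cKO crypts for 12 of 12 genes. Their median log2 fold change was 1.68 and their summed CPM was 2296 to 9377 in WT and 10841 to 19884 in cKO libraries. All 8 stem cell, 10 proliferation and 5 Paneth cell markers had negative log2 fold changes. Of these, 4, 5 and 3 were lower at an edgeR adjusted p below 0.05. Over all tested genes 12.7% were lower and 15.6% higher at that threshold. Because crypts were sequenced in bulk, more cells of a type and more RNA per cell cannot be told apart in any of the values below, and the part of these markers in the results on the subunits was not tested.

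Most nuclear subunit transcripts had small positive log2 fold changes in cKO crypts, and few passed the test. At an adjusted p of 0.05 over all 14719 genes (edgeR quasi-likelihood test), 13 of the 80 tested members (16.2%) were called higher, beside 15.6% of all tested genes. None was called lower, beside 12.7% of all genes, and DESeq2 and limma-voom also called 0 lower. An unadjusted p below 0.05 was reached by 22 of the 80 members, with none of them lower. Over all tested genes, 5957 of 14719 reached it in either direction. The share of members called higher was therefore near the background of that direction, while counting both directions 28.3% of all genes were called. The fitted log2 fold changes were positive for 78 of 80 members with the main scaling (trimmed mean of M values, TMM) but for 53 when libraries were scaled by their totals alone. Their median was 0.17, which is 12.4% higher in cKO crypts, beside a median of -0.03 over all tested genes, of which 45.9% were positive. Scaling by library totals shifted the median of all genes by -0.13, and the members' median then was 0.04 and again 0.20 above that of all genes. Every cKO library lay above every WT library for only 2 members, Ndufa1 and Cox7a1, beside 12.0% of all tested genes.

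**Figure D1:**
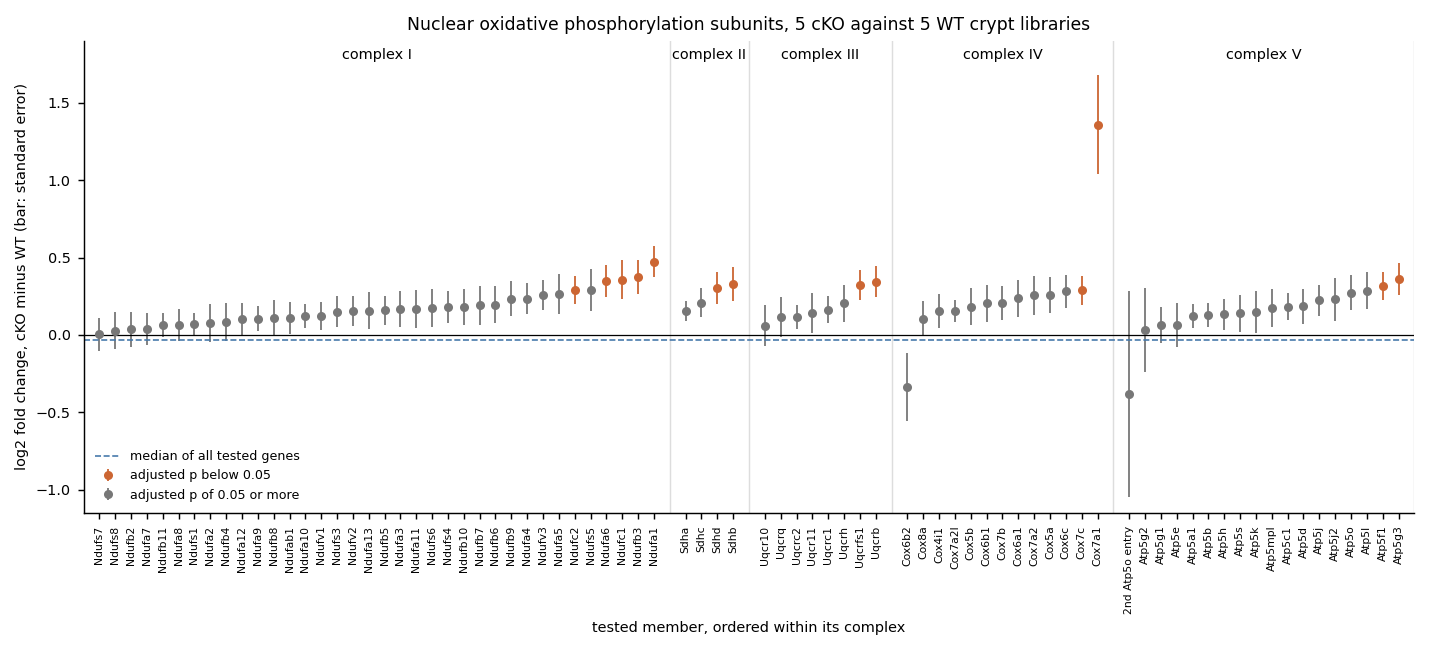
Log2 fold change of the tested members but 1, which is not shown (cKO minus WT, vertical axis), with its standard error, ordered within complexes I to V. Orange points have an adjusted p below 0.05; they number 5, 2, 2, 2 and 2 in complexes I to V, Cox7a1 stands highest at 1.36, and the dashed line marks the median of all tested genes, -0.03.

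The 5 WT libraries differed from each other more than the genotypes did. As the mean log2 CPM of the members, set relative to each gene's mean over 10 libraries, WT 1, 3 and 4 were at -0.19, -0.29 and -0.29, whereas WT 2 and 5 were at 0.17 and 0.10. The cKO libraries 1 to 5 were at 0.22, 0.11, 0.14, -0.07 and 0.10. WT 2 and 5 thus lay within the cKO range, and cKO 4 lay below both. WT 1, 3 and 4 were below every cKO library in 68 of 80 members, while WT 2 and 5 were below every cKO library in 2. The WT libraries were grouped by these same levels, so the counts only describe the spread. They were not taken over all tested genes. WT 2 was above cKO 4 in 76 members and WT 5 in 68. Members have short transcripts, with a median effective length of 530 bases beside 2194 for all tested genes. The 2233 other tested genes under 1000 bases were also higher in WT 2 and 5 than in the other WT libraries, at 0.10 and 0.12 in WT 2 and 5 and between -0.09 and -0.06 in WT 1, 3 and 4, but their genotype means were equal at 0.00. The part of transcript length and RNA quality in this spread was not tested.

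**Figure D2:**
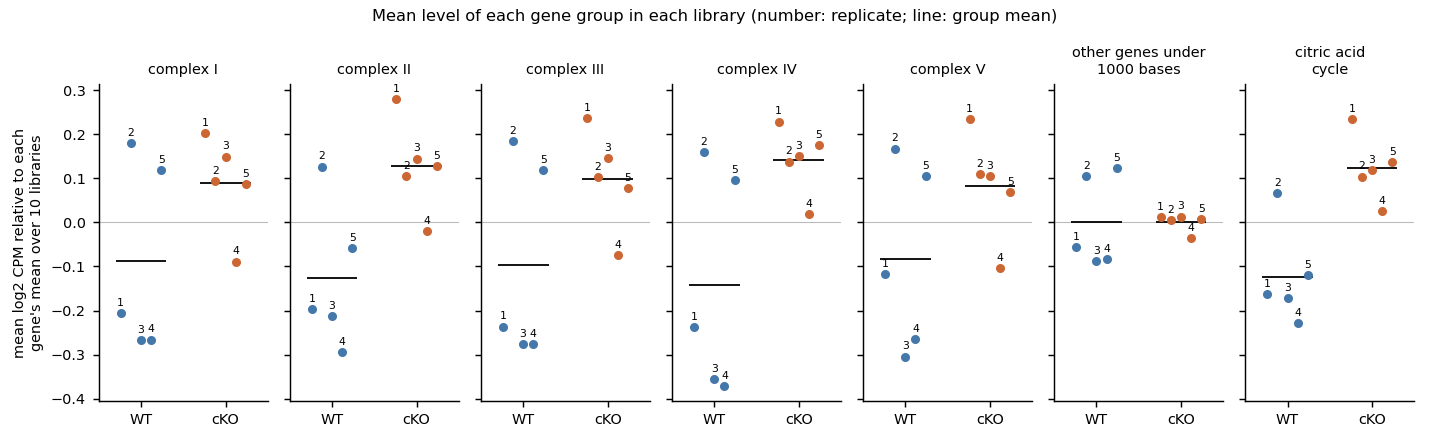
Mean log2 CPM relative to each gene's mean over 10 libraries, for complexes I to V, for other tested genes under 1000 bases and for citric acid cycle enzymes; each point is a library with its replicate number and each line a group mean. In all 5 complexes WT 1, 3 and 4 lie below the cKO libraries and WT 2 within their range.

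To show the sequence next to the start of the genes that differed most, the called member with the largest log2 fold change and a RefSeq promoter entry was taken from each complex. The 150 bases before the outermost annotated start are given 5′ to 3′ on the strand of the gene (GRCm38.p6), with letters that match a searched motif in capitals.
Ndufa1 (complex I, chrX:37191239-37191388, minus strand): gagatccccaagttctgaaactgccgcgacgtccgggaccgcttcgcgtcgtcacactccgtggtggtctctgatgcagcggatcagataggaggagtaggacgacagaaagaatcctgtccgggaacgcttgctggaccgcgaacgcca
Sdhb (complex II, chr4:140961053-140961202, plus strand): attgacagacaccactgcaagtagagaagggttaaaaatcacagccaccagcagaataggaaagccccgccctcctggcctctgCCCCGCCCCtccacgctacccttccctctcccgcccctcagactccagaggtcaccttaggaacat
Uqcrfs1 (complex III, chr13:30545363-30545512, minus strand): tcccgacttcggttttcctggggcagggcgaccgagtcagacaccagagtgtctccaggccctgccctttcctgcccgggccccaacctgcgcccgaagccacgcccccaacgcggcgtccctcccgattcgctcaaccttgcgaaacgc
Cox7a1 (complex IV, chr7:30183994-30184143, plus strand): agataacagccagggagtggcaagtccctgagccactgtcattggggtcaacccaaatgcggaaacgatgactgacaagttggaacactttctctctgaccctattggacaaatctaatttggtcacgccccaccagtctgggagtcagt
Atp5g3 (complex V, chr2:73911327-73911476, minus strand): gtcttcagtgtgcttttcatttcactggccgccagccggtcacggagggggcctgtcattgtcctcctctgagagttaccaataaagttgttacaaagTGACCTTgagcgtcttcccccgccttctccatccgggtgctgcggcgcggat
The capitals in Sdhb are the reverse complement of the SP1 motif GGGGCGGGG and those in Atp5g3 the reverse complement of the ERRA motif AAGGTCA. Ndufa1, Uqcrfs1 and Cox7a1 held none of the 6 motifs in the stretch shown.

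The motifs were searched on both strands from 250 bases before to 50 after the start in the 74 RefSeq promoters that belong to 69 members and in all 32851 promoters. The NRF1 motif GCGCATGCG was in 10.8% of member promoters and 1.75% of all, and the YY1 motif AAGATGGCG in 9.46% and 1.40%. The ERRA motif AAGGTCA, bound by the estrogen-related receptor alpha, was in 10.8% and 4.72%. The ETS motif CCGGAAGT was in 6.76% and 3.89%, the SP1 motif in 16.2% and 11.4%, and the HNF4 motif CAAAGTCCA in 0 member promoters and 0.475% of all. With so low a share over all promoters, 0 among 74 cannot show that members lack HNF4 sites, and only this exact string was searched. Of the 12 called members with a promoter, 3 held the SP1 motif, 2 the ERRA motif (Atp5g3 and Sdhd), 1 the YY1 motif (Ndufc1) and none the NRF1 or ETS motif. In the stretches printed no motif overlapped another.

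Complex I, the NADH dehydrogenase, had 5 called members of 37 tested (13.5%), beside 15.6% of all tested genes called higher. The median log2 fold change of complex I was 0.16. All 5 called members were accessory subunits, which surround the catalytic core. Ndufa1, a membrane-arm subunit at chrX:37187588-37191163, was at 35.8, 45.1, 34.0, 31.9 and 43.8 CPM in WT 1 to 5 and at 56.6, 49.9, 53.0, 49.2 and 55.9 in cKO 1 to 5. Each cKO library lay above the highest WT library. The means were 38.1 ± 5.97 and 52.9 ± 3.37 CPM (SD, n = 5), 1.39-fold higher in cKO crypts (log2 0.47, SE 0.10, edgeR adjusted p = 0.0057).

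The other called subunits of complex I overlapped between genotypes. Ndufb3, of the membrane arm, was at 50.03, 68.3, 45.3, 46.2 and 61.8 CPM in WT and at 72.0, 71.3, 71.2, 64.8 and 73.2 in cKO libraries. Only WT 2 reached the cKO range, above cKO 4. Its log2 fold change was 0.38 (SE 0.11, edgeR adjusted p = 0.0237). Ndufc1 and Ndufc2, a pair of membrane-arm subunits, rose by 0.36 and 0.29, and Ndufa6, of the matrix arm, by 0.35 on the log2 scale.

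The catalytic core of complex I had smaller log2 fold changes. Of its 7 nuclear subunits, which together hold the flavin and the iron-sulfur clusters, 0 were called by edgeR, DESeq2 or limma-voom, 0 had an unadjusted p below 0.05, and the median log2 fold change was 0.07. Among the other members of complex I, 5 of 30 tested (16.7%) were called and the median was 0.17. Over all tested genes 15.6% were called higher and 5957 of 14719 had an unadjusted p below 0.05. With only 7 core genes, 0 calls cannot be told apart from a share of 15.6%. Core genes had longer transcripts, with a median effective length of 888 bases beside 486 for the other members of complex I. The difference between these sets and the part of length in it were not tested. Ndufs1, the largest core subunit, was at 198, 226, 210, 200 and 191 CPM in WT and at 236, 214, 226, 191 and 209 in cKO libraries. The genotypes overlapped almost fully, with a log2 fold change of 0.07 (SE 0.07, edgeR adjusted p = 0.489), which was -0.06 when libraries were scaled by their totals. Its locus overlaps Eef1b2, which had 23480 median counts beside 5881 for Ndufs1, and whether the counting used strand was not given. Ndufv1, which binds NADH, had a log2 fold change of 0.12 (SE 0.09), and of -0.01 with library totals. The members of complex I that were not called ranged from 0.00 for Ndufs7 to 0.29 for Ndufs5. Ndufb4, at 14.3 and 15.1 CPM, is uncertain because it shares sequence with the processed pseudogene Ndufb4c, counted at 46.8 and 49.2 CPM.

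Complex II, the succinate dehydrogenase, links the citric acid cycle to the respiratory chain. It had the highest median of the 5 complexes, 0.26, with 2 of 4 genes called, beside 15.6% of all tested genes called higher. All 4 had an unadjusted p below 0.05, as did 5957 of all 14719 tested genes. With only 4 genes, 2 calls cannot be told apart from a share of 15.6%. Sdhb, the iron-sulfur subunit at chr4:140961203-140979193, was at 203, 276, 195, 186 and 235 CPM in WT and at 307, 266, 277, 239 and 286 in cKO libraries. WT 2 lay inside the cKO range and the other WT libraries lay below every cKO library. The means were 219 ± 36.6 and 275 ± 24.99 CPM (SD, n = 5), with a log2 fold change of 0.33 (SE 0.11, edgeR adjusted p = 0.0392). Sdhd, a membrane anchor that holds the heme with Sdhc, rose by 0.30 (SE 0.10, edgeR adjusted p = 0.0423). Sdha, the flavoprotein that oxidizes succinate, was at 637, 674, 658, 628 and 609 CPM in WT and at 771, 706, 735, 662 and 697 in cKO libraries. WT 2 alone was above the lowest cKO library, and the log2 fold change of 0.16 (SE 0.06) did not pass (edgeR adjusted p = 0.0876).

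Complex III, the cytochrome bc1 complex, had a median of 0.15 and 2 of 8 genes called, beside 15.6% of all tested genes called higher. Uqcrb, a ubiquinone-binding accessory subunit at chr13:66900617-66905378, was at 128, 169, 125, 124 and 160 CPM in WT and at 196, 187, 175, 159 and 178 in cKO libraries. WT 2 and WT 5 lay just above cKO 4 and below the other cKO libraries. The log2 fold change was 0.34 (SE 0.10, edgeR adjusted p = 0.0226). Uqcrfs1, the Rieske iron-sulfur protein that carries electrons toward cytochrome c1, was at 229, 297, 216, 208 and 254 CPM in WT and at 339, 289, 304, 274 and 300 in cKO libraries, a log2 fold change of 0.32 (SE 0.10, edgeR adjusted p = 0.0288). Uqcrc1, a core protein of the matrix side, overlapped between genotypes, at 482 ± 54.1 and 539 ± 43.2 CPM (SD, n = 5), with a log2 fold change of 0.16 (SE 0.09, edgeR adjusted p = 0.181). The 6 members that were not called ranged from 0.06 for Uqcr10 to 0.20 for Uqcrh.

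Complex IV, the cytochrome c oxidase, held the member with the largest difference. Cox7a1, known as the heart and muscle form of subunit VIIa (chr7:30184144-30186078), was at 9.89, 17.8, 5.87, 4.29 and 10.8 CPM in WT 1 to 5 and at 26.3, 24.4, 22.3, 23.8 and 27.7 in cKO 1 to 5. Every cKO library lay above every WT library, and the WT libraries spread over a wider range than the cKO libraries. The means were 9.72 ± 5.26 and 24.9 ± 2.13 CPM (SD, n = 5), 2.56-fold higher in cKO crypts (log2 1.36, SE 0.32, edgeR adjusted p = 0.0125), from 128 to 781 counts a library. The mean level of the enterocyte markers, relative to each gene's mean, was also lowest in WT 4 (-1.97) and WT 3 (-1.32). Among WT it was highest in WT 2 (0.12), with cKO libraries between 0.36 and 1.21. Most members shared this order: WT 3 and 4 were the 2 lowest WT libraries in 59 of 80, and WT 2 the highest in 63. WT 1 (-0.40) and WT 5 (-0.85) stood in the reverse of their order in Cox7a1. In these markers cKO 4 was at 1.18, while it was the lowest cKO library for 74 members. The part of enterocyte content in the level of Cox7a1 was not tested.

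Apart from Cox7a1, the tested genes of complex IV had log2 fold changes between -0.34 (Cox6b2) and 0.29 (Cox7c). Cox7c, a small subunit without an alternative gene, was at 108, 139, 102, 105 and 132 CPM in WT and at 152, 149, 143, 130 and 143 in cKO libraries. Its log2 fold change of 0.29 (SE 0.09) passed the test (edgeR adjusted p = 0.0364), and only WT 2 and WT 5 were above cKO 4. Cox4i1, the main regulatory subunit, was at 515 ± 89.6 and 573 ± 31.3 CPM (SD, n = 5), with a log2 fold change of 0.15 (SE 0.11, edgeR adjusted p = 0.3), and Cox5a was at 229 ± 43.9 and 274 ± 23.2 CPM, with 0.26 (SE 0.12, edgeR adjusted p = 0.115). The 2 called genes stood among 13 tested (15.4%), beside 15.6% of all tested genes called higher, and the median of complex IV was 0.21. Ndufa4, placed here in complex I by its symbol but now regarded as a subunit of complex IV, had a log2 fold change of 0.23 (SE 0.10, edgeR adjusted p = 0.0981). Cox7a2l, which joins complexes III and IV into supercomplexes, had 0.15 (SE 0.07).

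Complex V, the ATP synthase, had a median of 0.16 and 2 of 18 genes called (11.1%), beside 15.6% of all tested genes called higher. Atp5g3, 1 of 3 genes for the rotating c-ring subunit (chr2:73908447-73911326), was at 456, 606, 424, 422 and 527 CPM in WT and at 681, 605, 656, 563 and 623 in cKO libraries. WT 2 lay above cKO 2 and cKO 4, and the other WT libraries lay below every cKO library. The log2 fold change was 0.36 (SE 0.10, edgeR adjusted p = 0.0222). Atp5f1, subunit b of the peripheral stalk, was at 418, 507, 401, 396 and 470 CPM in WT and at 571, 583, 541, 466 and 574 in cKO libraries, a log2 fold change of 0.32 (SE 0.09, edgeR adjusted p = 0.0204). WT 2 and WT 5 were above cKO 4. The locus of Atp5f1 overlaps Wdr77, with 2636 median counts beside 14215 for Atp5f1.

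The catalytic F1 head of complex V, made of Atp5a1, Atp5b, Atp5c1, Atp5d and Atp5e, had 0 of 5 genes called by edgeR, DESeq2 or limma-voom and 0 with an unadjusted p below 0.05. Its median log2 fold change was 0.13, beside 0.18 and 2 of 13 called (15.4%) for the other members of complex V. Over all tested genes 15.6% were called higher and 5957 of 14719 had an unadjusted p below 0.05. With only 5 genes, 0 calls cannot be told apart from a share of 15.6%. The median effective length was 1059 bases for the F1 genes and 457 for the other members, and the part of length was not tested. Atp5b, the catalytic beta subunit, was the most abundant member per transcript length, at 1801 TPM (a level corrected for transcript length) in WT. It was at 2041, 2380, 2056, 2010 and 2266 CPM in WT and at 2574, 2298, 2377, 2127 and 2370 in cKO libraries, and the genotypes overlapped. Atp5b and Atp5a1, the alpha subunit, had log2 fold changes of 0.13 (SE 0.08) and 0.12 (SE 0.08), which were 0.00 and -0.01 when libraries were scaled by their totals. Atp5s, which bears the symbol but is a coupling factor rather than a subunit, had 0.14 (SE 0.12). A further entry of Atp5o at a long readthrough locus had 0 to 35.6 counts and a log2 fold change of -0.38 (SE 0.66), while Atp5o itself had 0.27 (SE 0.11, edgeR adjusted p = 0.088).

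**Figure D3:**
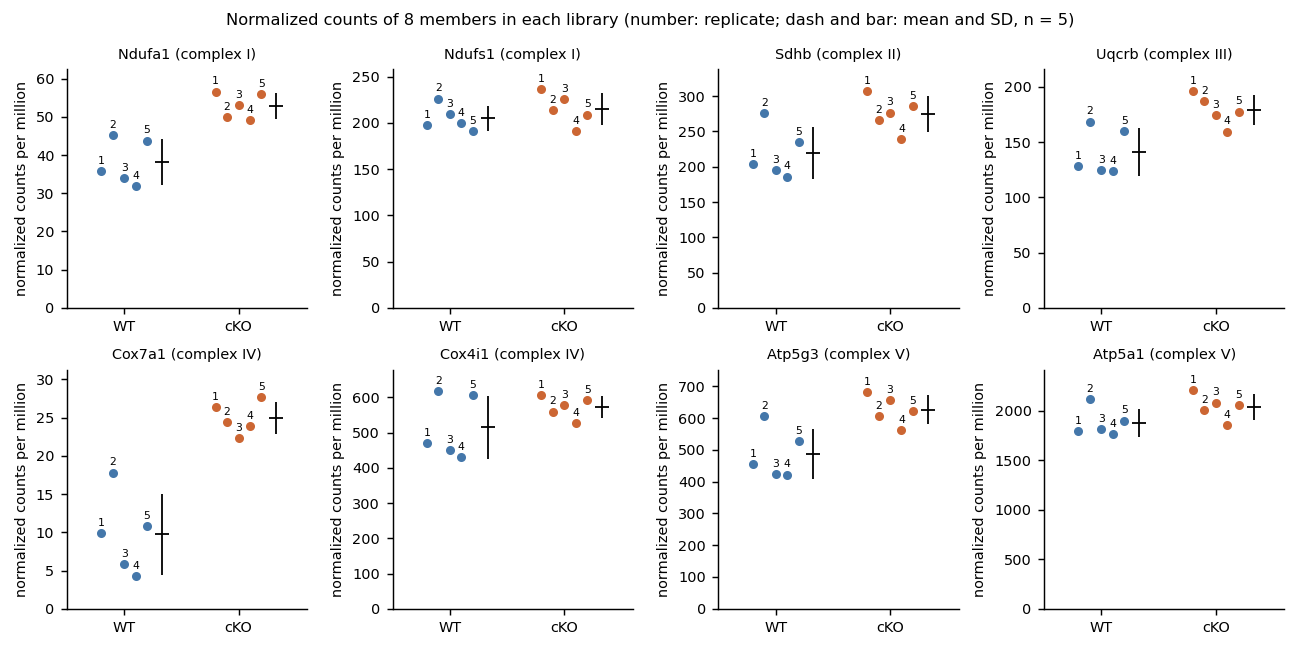
Normalized CPM of 8 members (vertical axes from 0) in each of 5 WT and 5 cKO libraries, with replicate numbers, means and SD. Ndufa1 and Cox7a1 do not overlap between genotypes, while WT 2 reaches the cKO range in Sdhb, Uqcrb and Atp5g3 and the genotypes overlap in Ndufs1, Cox4i1 and Atp5a1.

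In the Cox4i, Cox6a, Cox6b, Cox7b, Cox8 and Ndufa4 families, 1 gene gave nearly all of the TPM in both genotypes, unlike in the Atp5g and Cox7a families. Cox4i2, Cox6a2 and Ndufa4l2, the forms known from hypoxic tissue or muscle, made up at most 0.0559% of the TPM of their families, and Cox7b2, Cox8b and Cox8c were listed at 0 in all 10 libraries, which allows up to 3 counts in each. Cox6b1 made up 99.3 ± 0.243% and 99.5 ± 0.111% of the Cox6b TPM (SD, n = 5; exact permutation test, p = 0.262), and Cox6b2, the testis form, was at 2.46 and 1.94 CPM with a log2 fold change of -0.34 (SE 0.22).

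The c-ring genes differed in their proportions. Atp5g3 made up 73.0, 72.1, 71.5, 71.0 and 69.3% of the Atp5g TPM in WT 1 to 5 and 74.4, 74.7, 74.5, 77.2 and 75.5% in cKO 1 to 5. The genotypes did not overlap, and WT 2 and WT 5 were not set apart from the other WT libraries as they were in the levels. The difference was 3.91 percentage points (exact permutation test over libraries, two-sided, p = 0.00794, which is the lowest 5 against 5 libraries can reach, and 0.0238 when adjusted over 3 families). Atp5g1, the other main form, fell in share from 27.6 ± 1.22% to 23.9 ± 1.01% (SD, n = 5) while its CPM had a log2 fold change of 0.06 (SE 0.12). Atp5g2 held 1.00% and 0.839%. All 3 genes encode the same mature protein after removal of the import sequence, so that these shares concern transcripts.

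In the Cox7a family, 2 genes held most of the TPM. Cox7a2 held 53.9 ± 2.87% in WT libraries and 51.6 ± 2.95% in cKO libraries (SD over 5 each; exact permutation test, p = 0.246), with a lowest share of 48.9% among the cKO libraries. Cox7a2l held 41.1 ± 3.90% in WT and 37.6 ± 2.65% in cKO libraries. With normalized counts in place of TPM the difference in the share of Cox7a2 of -2.30 points turned to 0.697 points. As a description, Cox7a1 took 4.97 ± 2.03% of the family in WT and 10.8 ± 0.836% in cKO libraries.

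Other genes of the pathway were taken from lists of assembly factors, regulators and neighbouring enzymes. Over all tested genes 15.6% were called higher and 12.7% lower, and 5957 of 14719 had an unadjusted p below 0.05. Assembly factors, which build the complexes but are not part of them, showed no common direction. Of 14 complex I assembly factors 0 were higher and 1 lower (Foxred1, -0.23), with a median of -0.10; none of the other 13 had an unadjusted p below 0.05, and DESeq2 and limma-voom also called 1 lower and 0 higher. Of 21 tested complex IV assembly factors 3 were higher (Cox16 0.42, Cox15 0.37 and Coa5 0.20) and 2 lower (Sco2 -1.53 and Cox18 -0.31). Sco2 had few counts, 149 to 281 in WT and 21.7 to 115 in cKO libraries, and its log2 fold change had an SE of 0.37. Complex II and III assembly factors had 0 called of 4 and 6 by edgeR, DESeq2 and limma-voom, with 1 and 1 at an unadjusted p below 0.05. Of 4 complex V factors 1, Atpaf1, was higher (0.29), and the ATP synthase inhibitor Atpif1 was at 225 and 273 CPM without passing (edgeR adjusted p = 0.0854).

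Citric acid cycle enzymes, which supply NADH and succinate, were called higher for 6 of 12 genes and lower for 0, beside 15.6% and 12.7% of all tested genes. The median of these enzymes was 0.23. No gene of that list had an unadjusted p below 0.05 in the lower direction, and DESeq2 and limma-voom called 0 lower. Mdh2 was at 596 and 942 CPM in WT and cKO crypts (log2 0.66, SE 0.14) and Ogdh at 395 and 621 (log2 0.65, SE 0.10), and Cs, the citrate synthase, at 523 and 676 (log2 0.37, SE 0.08). Cycs, the mobile carrier cytochrome c, rose by 0.49 (SE 0.11, edgeR adjusted p = 0.00865) and Cyc1, the cytochrome c1 of complex III, had 0.11.

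Of 13 mitochondrially encoded subunits 10 were called higher and 1, mt-Nd3, lower (-0.54), beside 15.6% and 12.7% of all tested genes. The median of the 13 was 0.57. All mitochondrially encoded genes together took 5.81 to 8.27% of counts in WT and 8.34 to 10.7% in cKO libraries; levels between these genes are uncertain because nuclear copies of mitochondrial DNA share their sequence. Among 12 regulators of mitochondrial biogenesis, Ppargc1a was at 11.4 to 23.4 CPM in WT and 37.6 to 49.97 in cKO libraries (log2 1.26, SE 0.17, edgeR adjusted p = 0.000991) and Esrra rose by 0.45, whereas Pprc1 fell by 0.63 and Nrf1 fell by 0.20 on the log2 scale. Tfam, the packaging factor of mitochondrial DNA, was at 116 and 115 CPM. Mitochondrial import had 0 higher and 2 lower of 17 (edgeR; 1 higher at an unadjusted p below 0.05 and by DESeq2, 0 by limma-voom), with a median of -0.03. Mitochondrial ribosomal proteins had 0 higher and 3 lower of 78 (0 higher at an unadjusted p below 0.05, by DESeq2 and by limma-voom), with a median of -0.09. Log2 fold changes were negative for 59 of the 78, and 12 were lower at an unadjusted p below 0.05. Cytosolic ribosomal proteins, which are also short transcripts, had 1 higher and 6 lower of 83, with a median of -0.14. Of these 83, 77 had negative log2 fold changes. At an unadjusted p below 0.05, 22 were lower, and DESeq2 called 13 lower and limma-voom 5. In either direction, 5957 of the 14719 tested genes had an unadjusted p below 0.05.

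**Figure D4:**
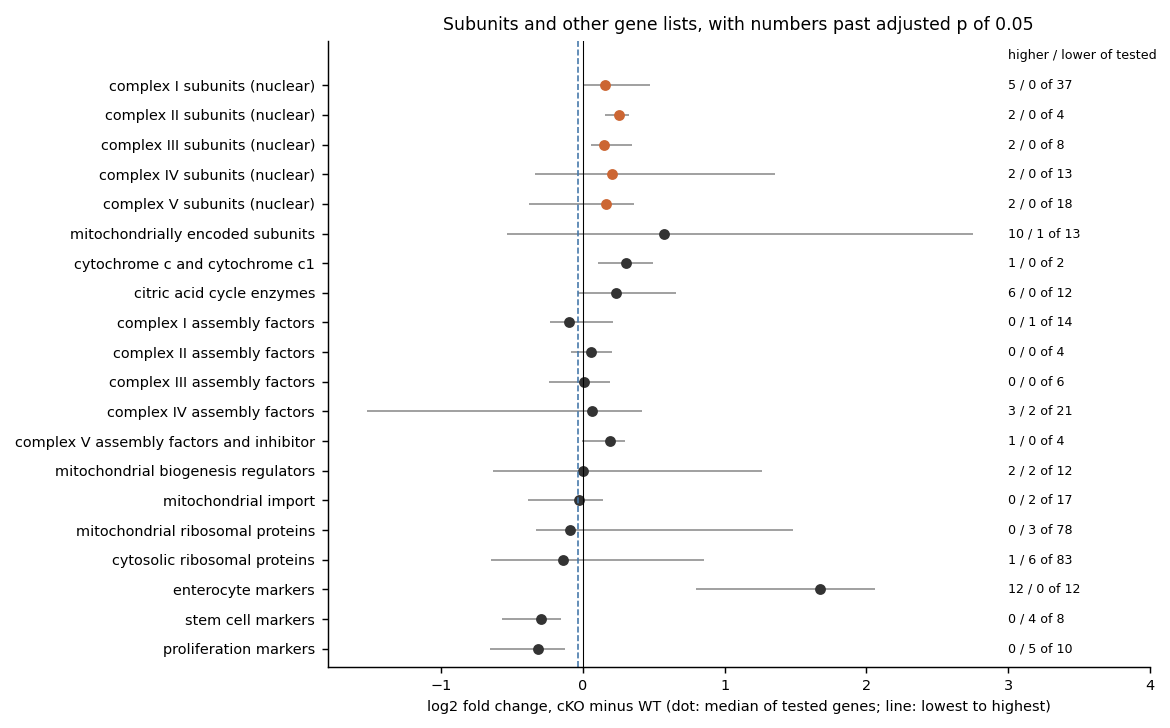
Median log2 fold change (dot) and the lowest to highest value (line) of the tested genes in each list, with the numbers called higher and lower at an adjusted p below 0.05. Nuclear subunits of complexes I to V have medians between 0.15 and 0.26, below those of mitochondrially encoded subunits (0.57) and enterocyte markers (1.68); the dashed line is the median of all tested genes, -0.03.

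Markers of other cell types gave the following counts, beside 15.6% of all tested genes called higher and 12.7% lower. An unadjusted p below 0.05 was reached by 5957 of the 14719 tested genes. Enteroendocrine markers were higher for 3 of 8 and tuft cell markers for 4 of 5 tested genes. Goblet cell markers had 0 called of 7 by edgeR and limma-voom and 1 higher by DESeq2, with 3 at an unadjusted p below 0.05. Of 12 immune cell markers 1 was lower and of 10 tested stromal and endothelial markers 2 were lower, with summed CPM of 25.4 to 105 in WT and 19.8 to 157 in cKO libraries for the latter. Erythrocyte markers summed to 2.23 to 11.5 CPM in WT and 0.54 to 5.54 in cKO libraries, with 0 of 3 called by edgeR and limma-voom, 2 lower at an unadjusted p below 0.05 and 2 lower by DESeq2. The part of these cells in the level of the subunits was not tested.

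The number of called members changed with the libraries included. It was 6, 28, 2, 2 and 15 without WT 1 to 5, and 3, 3, 7, 14 and 2 without cKO 1 to 5, while the share of all genes called higher stayed between 11.8% and 17.2%. Without WT 2 the median of the members was 0.24 and without WT 4 it was 0.13. Ndufa1 and Cox7a1 were called in all 10 of these fits and in all 11 other settings. Each of the remaining 11 called members lost its call in 4 to 7 of the 10 fits. When a trend on transcript length was removed in each library, 38 members were called higher, beside 17.0% of all genes, and with library totals 2 were called. At that scaling 1541 genes were called higher and 4030 lower over all genes, beside 2298 and 1869 with TMM factors.

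**Figure D5:**
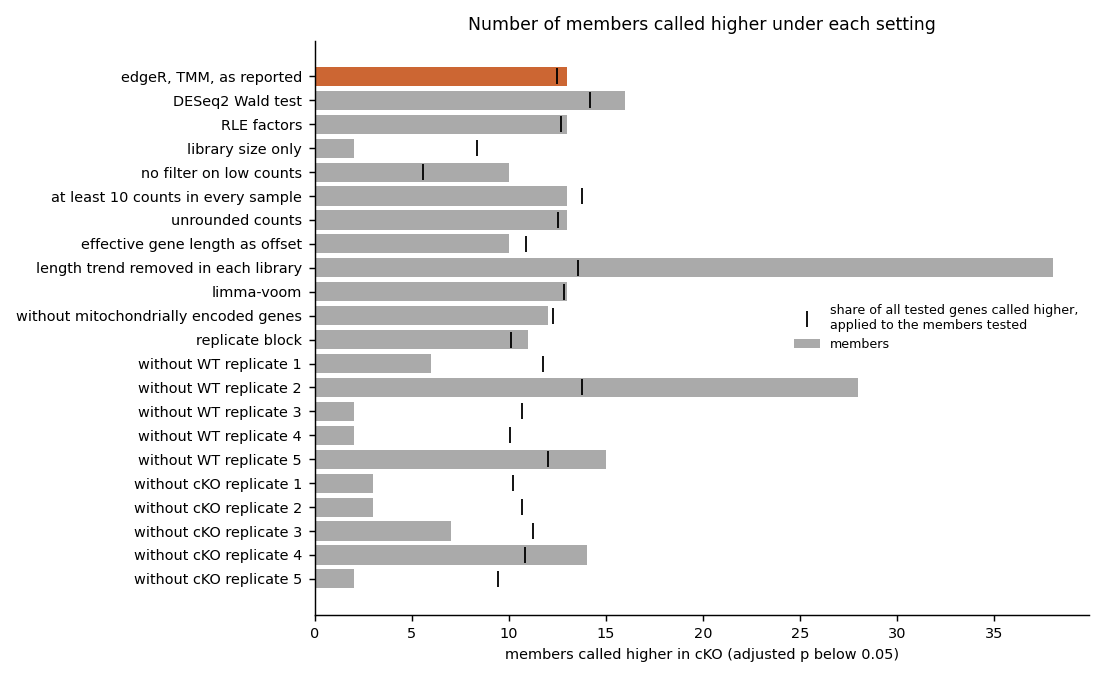
Number of members called higher in cKO crypts (bars, adjusted p below 0.05) under each setting; black ticks give the share of all tested genes called higher, applied to the members tested. The count is 13 as reported, 2 with library totals, 38 with the length trend removed and 2 to 28 when 1 library is left out.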

How the data were processed

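Poly(A) RNA of jejunal crypts was sequenced from 5 WT and 5 cKO mice. Per the labels and the study's methods, the authors quantified reads with STAR and RSEM against the Ensembl annotation of GRCm38 (nf-core/rnaseq) and deposited, for each library, expected counts, TPM values and effective lengths for 54838 genes; the strand setting and the aligner version are not given in the sources used here. Of these genes, 54809 were matched to a symbol in a GENCODE annotation of GRCm38 released after the study's, so that a few symbols may differ: Usmg5 (also Atp5md) and Ndufb1-ps were not taken by the rule.

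Expected counts were rounded and tested with edgeR 4.0.16 in R 4.3.3 (filterByExpr with a minimum count of 10 and minimum total of 15, TMM factors of 1.00 to 1.08 in WT and 0.934 to 0.986 in cKO libraries, robust quasi-likelihood test, cKO minus WT), with Benjamini-Hochberg adjustment over all 14719 genes tested and a threshold of 0.05. CPM were scaled by TMM factors, and log2 CPM used a pseudocount of 0.5. The deposited TPM served to compare levels and shares between genes, since TPM corrects for length. Shares were compared by exact permutation tests over libraries. Standard errors are the log2 fold change over the square root of the F statistic. DESeq2 1.42.0, limma 3.58.1 and other settings were tried, and the fit was tested on simulated data. Each library is 1 animal by its label, and the p-values set the difference between genotypes against the spread between these animals. Reads carry no molecular identifiers, so counting limits cover counting error only.

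Members, gene lists and tests were chosen with earlier results of these data known. Named genes were the called members with the largest log2 fold change in each complex (up to 3), a set of catalytic, structural and regulatory subunits, members of families with alternative genes, the other called members by log2 fold change, and genes of the lists. The values of 1 gene are not reported here.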

Additional observations from a re-analysis of the deposited data

Results flagged for a closer look

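The named members, the mean level of each complex and the 3 family shares were examined in both genotypes for a library far from the other 4, in 72 groups of 5 libraries, and 1 group passed Dixon's 95% critical value of 0.71. Ndufb3 was at 64.8 CPM in cKO 4 and at 71.2 to 73.2 CPM in the other cKO libraries. Chance gives such a gap in about 1 of 20 groups. cKO 4 was also the lowest cKO library for 74 of the 80 tested members.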

How the results depend on the processing

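The number of members called higher, 13 as reported, was 2 with library totals and 38 with a length trend removed in each library, and it ranged from 2 to 28 when 1 library was left out. It was 16 with DESeq2, 13 with limma-voom and 10 with effective length as an offset or without a filter on low counts. The median log2 fold change of the members stayed positive under every setting, from 0.04 with library totals to 0.24 without WT 2. Library totals raised the number of called genes of the other pathway lists from 41 to 146. With library totals the log2 fold changes of Atp5a1, Atp5b, Atp5g1, Atp5g2, Ndufs1 and Ndufv1 turned to -0.0099, -0.0014, -0.0627, -0.095, -0.0597 and -0.0059. Cox6b1 turned to -0.0723 with effective length as an offset. Atp5g2, with 118 to 285 counts a library, ranged from -0.16 to 0.23 when 1 library was left out. The share of Cox7a2 turned from -2.30 to 0.697 percentage points with normalized counts in place of TPM. The share of Atp5g3 kept its call under each setting tried for it, with adjusted p from 0.0238 to 0.0476. Motif shares of the members in the window from 100 bases before the start lay within the counting interval of the wider window. The cause of these changes was not tested.

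Same-numbered WT and cKO libraries had correlations over genes of -0.16, -0.04, 0.13, -0.14 and -0.15. These lay within the range of differently numbered pairs, -0.24 to 0.30. The labels do not say whether a shared number stands for a pairing of animals, and these values cannot exclude it. With the replicate number as a block, 11 members and 3052 genes were called, beside 13 and 4167.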
